A study of Mus musculus with 3 samples.

Results

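Tubulin mRNAs were followed here cytosine by cytosine in bisulfite-sequenced mRNA of mouse embryonic stem cells. The 10 genes were chosen by name: the alpha-tubulins Tuba1a, Tuba1b, Tuba1c and Tuba4a, the beta-tubulins Tubb5, Tubb4b, Tubb2a, Tubb2b and Tubb6, and the gamma-tubulin Tubg1. Each was found as 1 RefSeq transcript, so that 10 of the 15021 listed transcripts and 3443 of the 4450412 cytosines listed in any library belong to them. All 3 samples form a single group of J1 embryonic stem cells of genotype Tet1-/-,Tet2-/-,Tet3-/-, with no control genotype among them. The cells were grown with serum and ESGRO on primary mouse embryonic fibroblast feeders, which were then depleted by letting them attach. Poly(A)+ RNA was fragmented, converted with bisulfite and read as paired ends of 100 bp. The labels do not tell separate cultures from repeats of 1 culture, so the spread between them may be technical.

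Microtubules are polymers of heterodimers of alpha- and beta-tubulin, and gamma-tubulin nucleates them at the centrosome. The alpha and beta proteins are made from families of genes whose coding sequences are very alike, while their untranslated ends and the codons of the C-terminal tail differ most. Bisulfite turns unmodified cytosine into uracil, read as thymine, so that paralogues that differ by C against T become still more alike in the reads. Cytosines that stay unconverted may carry 5-methylcytosine or 5-hydroxymethylcytosine or may have escaped the reagent, and the reads do not separate these cases.

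The positions in the tables could be checked against sequence at the start of the transcripts. RefSeq (GRCm38.p6) gives the transcript start of 7 of the 10 mRNAs. The first 30 bases of 4 of them are shown because they tie the listed positions to real cytosines, at the end of the mRNA where paralogues differ. Capitals mark the cytosines that the tables list, and lower-case c marks cytosines that they do not list.
Tuba1a: cCtCCtCCtCgCCtCCgCCatCCaCCCggC
Tuba1b: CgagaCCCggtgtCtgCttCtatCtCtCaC
Tubb5: gccccCggCCgCgCgaaCgCgagCCCCgCC
Tubb2a: tggtcttttgCgCtCCttagCCCtCtgtCC
These windows lie on the minus strand, at chr15:98953472-98953501 for Tuba1a, chr15:98934361-98934390 for Tuba1b, chr17:35838272-35838301 for Tubb5 and chr13:34077979-34078008 for Tubb2a. Over the first 50 bases, the tables listed 25 of 26 reference cytosines of Tuba1a, 20 of 20 of Tuba1b, 24 of 28 of Tubb5, 17 of 18 of Tubb2a and 5 of 7 of Tubb4b. They listed no position in these 5 windows that is another base. Position 1 of the tables is therefore the RefSeq transcript start in these mRNAs. In Tuba4a 11 listed positions fell on other bases, so its listed transcript starts elsewhere than the RefSeq window, and Tuba1c had no listed cytosine before position 92.

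The starts of Tuba1a and Tuba1b were set over each other in sequence. With Tuba1a set 7 bases further along than Tuba1b, the offset at which their listed cytosines coincide best, 15 of 43 bases were identical. When every C is read as T, 24 of 43 were identical. No other offset was compared, so these counts do not show how alike the starts are.

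The listed cytosines were used to set the mRNAs of a family over each other. For each pair, 1 transcript was moved along the other, and the offset with the most coinciding cytosines was taken as the shared frame, with no insertions or deletions. Among the Tuba1 genes, 86 cytosines of Tuba1a coincided with Tuba1b at an offset of 7 nt, against 41 at the next best offset. Tuba1a and Tuba1c coincided at 82 cytosines (next best 37, offset 483 nt), and Tuba1b and Tuba1c at 85 (next best 46, offset 476 nt). The 3 offsets add up, as those of 1 shared frame must. Tuba4a shared 115, 124 and 123 cytosines with Tuba1a, Tuba1b and Tuba1c in the same frame. Among the beta genes, Tubb5 shared 311 cytosines with Tubb4b and 317 with Tubb6, while Tubb2a and Tubb2b shared 124 (next best 54, offset 42 nt).

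Long stretches without a listed cytosine were found in 6 of the 10 mRNAs. A stretch is here a run of at least 50 nt between neighbouring listed cytosines, a cytosine counting as listed when any of the 3 libraries lists it. The files list no coverage below 3 reads, so a stretch holds either no cytosine or cytosines read fewer than 3 times. Of the 3502 transcripts covered at least as deeply as the least covered tubulin, 50.7% had such a stretch, and 29.6% had one of at least 100 nt. Presence of a stretch was thus common in all mRNAs. The tubulins fell into separate sets by length: the longest runs without a listed cytosine were 211 to 736 nt in the 6 interrupted mRNAs and 29 to 43 nt in the other 4, on either side of the median of 51 nt in those transcripts.

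Tuba1a and Tuba1b, alpha-tubulin genes that both lie on chromosome 15, were unlisted over more of their length than they were listed. Tuba1a (NM_011653.2, span 1564 nt) had 3 stretches, between positions 150 and 637, 835 and 901, and 1006 and 1310. They took 54.6% of its span in the 3 libraries together, and 57.9%, 58.3% and 58.1% in replicates 1, 2 and 3 alone. Tuba1b (NM_011654.2, span 1554 nt) had stretches between 165 and 902 and between 1204 and 1309, or 54.1% of its span, with 55.0%, 55.0% and 55.2% in the single libraries. The unlisted share varied little between libraries in this pair, and more in others: it was 51.6%, 57.8% and 56.4% in Tuba1c, 56.1%, 53.7% and 51.8% in Tubb2a, and 42.4%, 44.0% and 50.2% in Tubb2b. The 736 nt of Tuba1b were the longest stretch of any tubulin, and 66 of the 3502 transcripts, itself included, had one as long.

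Tuba1c (NM_009448.4, span 1879 nt) was broken into 5 listed blocks by 4 stretches of 225, 182, 345 and 277 nt, 54.8% of its span. In the shared frame the first of these lay before the start of the other alpha-tubulins, so it has no counterpart in them. The block before it held 9 cytosines at a mean of 3.25 reads, and replicate 1 listed none of them. Tuba4a (NM_009447.3), an alpha-tubulin encoded on another chromosome, had none, and its longest run without a listed cytosine was 35 nt.

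In the shared frame the gaps of the Tuba1 mRNAs partly lay over each other and partly alternated. The stretches of Tuba1a and Tuba1c both began after position 160 of Tuba4a, and again both after position 1016. Over the 1449 nt that the 4 mRNAs have in common, 28.0% (406 nt) was unlisted in all of Tuba1a, Tuba1b and Tuba1c, 43.7% (633 nt) was listed in only 1 of them, 0.966% (14 nt) in 2, and 27.3% (396 nt) in all 3. The blocks listed in 1 mRNA took turns: positions 343 to 531 of the frame were listed in Tuba1c, 647 to 845 in Tuba1a and 1017 to 1207 in Tuba1b. Tuba4a listed 53, 64 and 53 cytosines in these blocks, and the mRNA that owned the block 53, 54 and 54.

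The unlisted parts were not short of cytosines in the family. Opposite the longest stretch of Tuba1a, Tuba4a listed 145 cytosines at a mean of 16.1 ± 1.76 reads, and Tuba1c listed 53 at 80.4 ± 10.4 (SD, n = 3). Opposite the longest stretch of Tuba1b, Tuba4a listed 228 cytosines at 16.2 ± 2.14 reads and Tuba1a 54 at 16.0 ± 3.38. By reads per listed cytosine Tuba4a was covered less than Tuba1b, and it was listed without a break where Tuba1b was not.

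**Figure D1:**
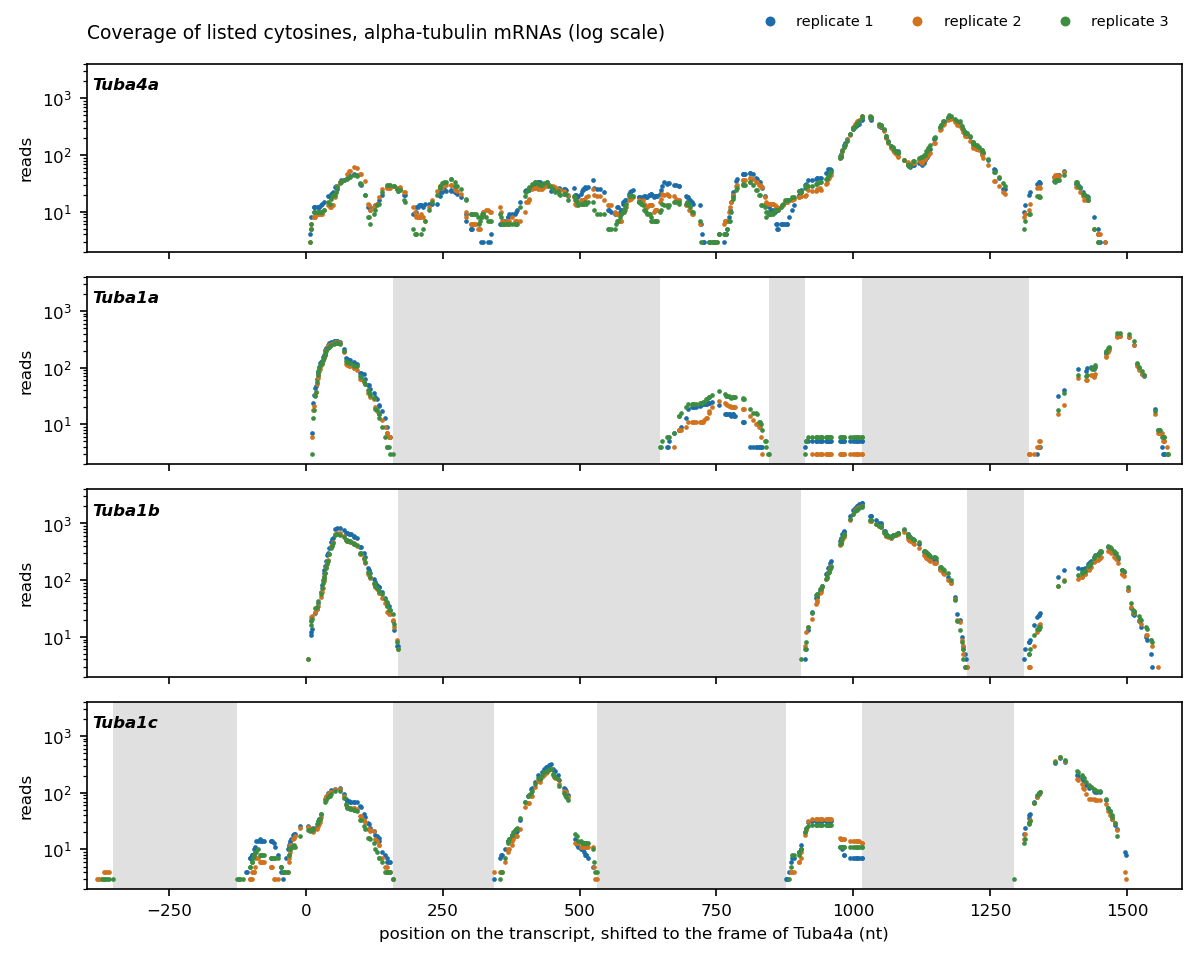
Coverage in reads (log scale) at every listed cytosine of the 4 alpha-tubulin mRNAs against position in nt, shifted to the frame of Tuba4a; points are cytosines, colours the 3 replicates, and grey bands the stretches of at least 50 nt without a listed cytosine. Tuba4a is listed throughout, while Tuba1a, Tuba1b and Tuba1c have 3, 2 and 4 grey bands, and the libraries follow one another closely.

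Coverage rose and fell between the gaps in a way that differed between the Tuba1 mRNAs. At the start of the transcript, the block from position 2 to 150 of Tuba1a held 108 ± 9.04 reads per listed cytosine, and that from 1 to 165 of Tuba1b held 234 ± 38.1 (SD, n = 3). In the middle, Tuba1b was deepest from 902 to 1204, with 514 ± 30.1 reads and a peak of 2282, 2050 and 2005 reads at position 1013 in replicates 1, 2 and 3. All libraries peaked at the same cytosine.

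The block from 911 to 1016 of the frame was listed in all 3 Tuba1 mRNAs, and their 30 cytosines coincided in every case. There the mean coverage was 638 reads in Tuba1b, 21.0 in Tuba1c and 4.61 in Tuba1a, so equal cytosine patterns were read at very unequal depth. In the blocks at the ends of the frame the patterns were less alike, with 32 of 66 cytosines common to all 3 mRNAs at 12 to 160 and 11 of 38 at 1320 to 1460. The last block of Tuba1a, from 1310 to 1565, held 95.8 ± 18.2 reads, that of Tuba1b, from 1309 to 1554, held 128 ± 13.8, and that of Tuba1c, from 1767 to 1970, held 109 ± 11.7 (SD, n = 3). These blocks differ in extent. Over the window from 1320 to 1460 that all 3 mRNAs list, the mean coverage was 57.7 reads in Tuba1a, 136.5 in Tuba1b and 144 in Tuba1c, so Tuba1a was the lowest there, and Tuba1b did not stand above Tuba1c as it did in the middle.

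Of the beta-tubulins, the pair Tubb2a and Tubb2b was interrupted and the others were not when the 3 libraries were pooled. Tubb2a (NM_009450.2) had stretches between positions 494 and 649 and between 716 and 1345, or 50.1% of its span of 1561 nt. Tubb2b (NM_023716.2), a gene known for its role in neurons, had them between 553 and 632 and between 780 and 1347, or 40.1% of 1605 nt. In the frame of the pair they lay over each other: all of the 78 and 566 unlisted nt of Tubb2b were unlisted in Tubb2a, and 50.6% and 90.1% of the 154 and 628 nt of Tubb2a were unlisted in Tubb2b. Of 1555 nt in common, 41.4% (644 nt) was unlisted in both.

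Tubb5 (NM_011655.5), a broadly expressed beta-tubulin, listed 202 cytosines opposite the long stretch of Tubb2a, at 444 ± 51.6 reads. Tubb4b (NM_146116.2), another broadly expressed isotype, listed 178 there at 129 ± 8.21, and Tubb6 (NM_026473.2) listed 197 at 40.9 ± 3.90 (SD, n = 3). Their own longest runs without a listed cytosine were 34, 29 and 43 nt. With the libraries taken singly, Tubb6 also had stretches, over 4.75% of its span in replicate 2 and 3.75% in replicate 3, and Tubb5 and Tubb4b had none.

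Before the first stretch, Tubb2a held 26.8 ± 0.812 reads per cytosine up to position 494, and Tubb2b 84.7 ± 2.73 up to position 553. After the long stretch they held 12.7 ± 1.18 and 34.5 ± 3.05 (SD, n = 3). Tubb2b was above Tubb2a in every library in both blocks. The cytosine patterns of the pair were more alike before the stretches, where 92 of 151 cytosines coincided, than after them, where 18 of 64 did.

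**Figure D2:**
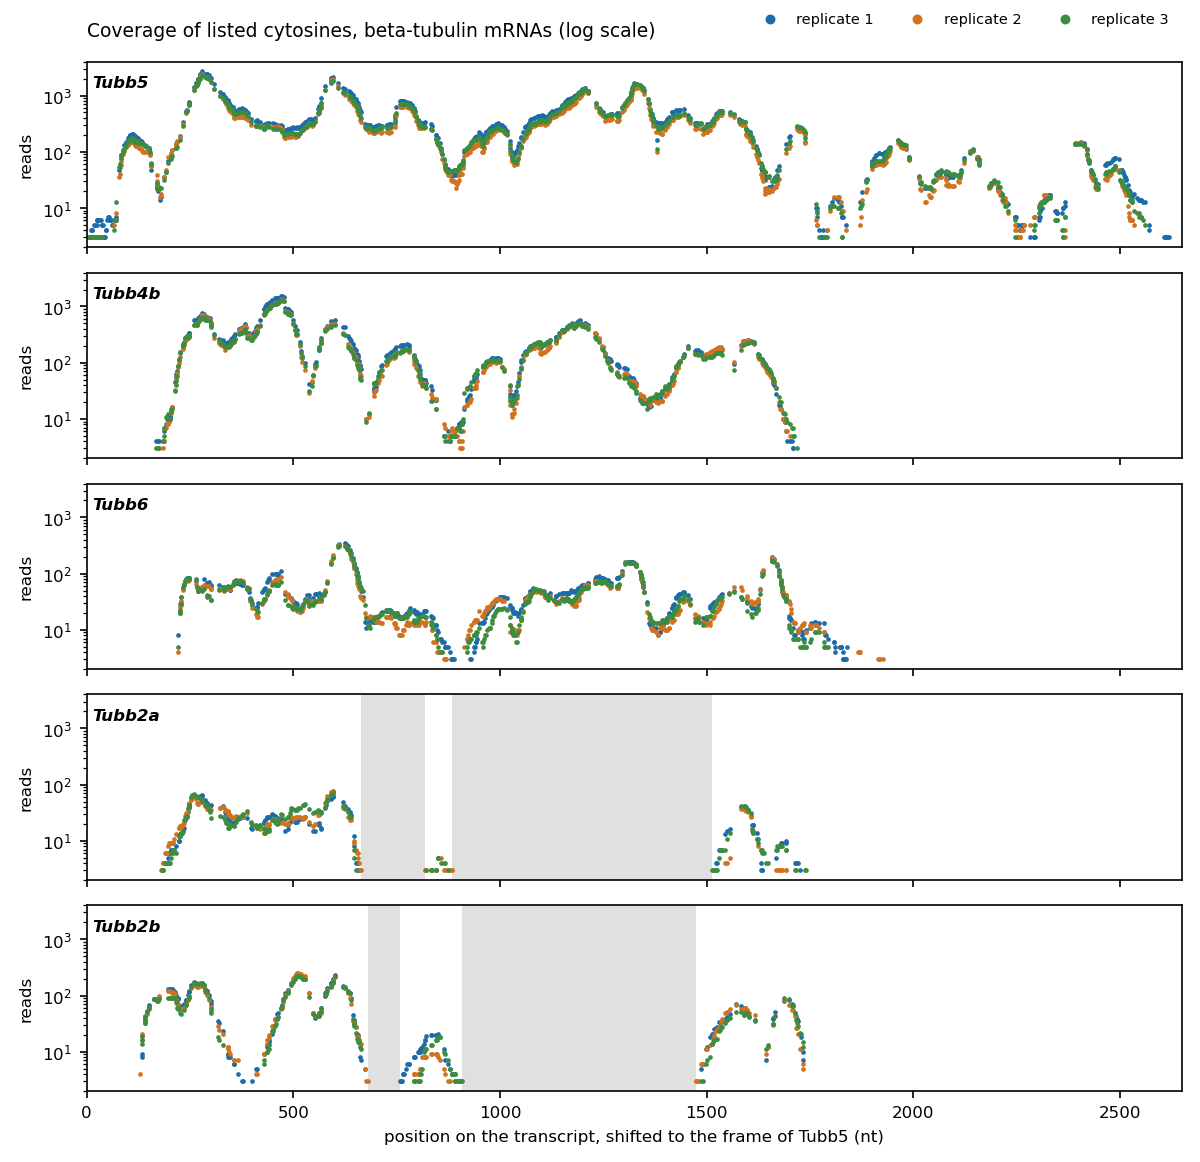
Coverage in reads (log scale) at every listed cytosine of the 5 beta-tubulin mRNAs against position in nt, shifted to the frame of Tubb5; points are cytosines, colours the 3 replicates, and grey bands the stretches of at least 50 nt without a listed cytosine. Taken over the 3 libraries together, Tubb5, Tubb4b and Tubb6 have no grey band, and the 2 grey bands of Tubb2b lie within those of Tubb2a.

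Tubg1 (NM_134024.2), which encodes the gamma-tubulin of the centrosome, had a single stretch of 211 nt between positions 768 and 980, or 13.5% of its span of 1558 nt with the libraries together and 17.8%, 14.9% and 18.1% in replicates 1, 2 and 3 alone. Its paralogue Tubg2 coincided with it at 64 cytosines (next best 31, offset 173 nt), and all 211 nt were unlisted in Tubg2 as well. Tubg2 listed 71 cytosines in all, at a mean of 4.15 ± 1.66 reads (SD, n = 3), so it was itself near the listing minimum. Stretches took 81.2% of the span of Tubg2, so an overlap with the stretch of Tubg1 was likely beforehand.

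Coverage was low at the ends of the stretches. The cytosines on either side of a stretch had at most 13 reads in any library. Within 50 nt of an end, Tuba1b held 48.4 ± 3.26 reads per listed cytosine against 441 ± 38.9 elsewhere, Tuba1a 9.15 ± 1.03 against 96.2 ± 7.14, and Tubb2b 16.4 ± 1.07 against 73.1 ± 1.85 (SD, n = 3). Coverage was thus lower beside the gaps than elsewhere in each of these mRNAs, which follows in part from how a stretch is defined. In a stretch no cytosine reached 3 reads, and reads of 100 bp span neighbouring cytosines. Stretch ends in other transcripts were not set beside these values. How reads with matches in several paralogues were treated before deposit is not stated, and the part of such reads in the gaps was not tested.

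Among transcripts at least as deeply covered as the least covered of the 5 tubulins above 20%, the share of the span in stretches was closest to the 54.8% of Tuba1c in Gpatch11 (54.7%), Pcbp2, an RNA-binding protein (55.2%), and Ndufa11, a subunit of respiratory complex I (53.9%). Their spans were 2862, 663 and 1418 nt, so the Pcbp2 transcript was listed over a short part only, against 1879 nt in Tuba1c.

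Mean coverage per listed cytosine ordered the mRNAs as Tuba1b, Tubb5, Tubb4b, Tuba1a, Tubb2b, Tuba4a, Tuba1c, Tubb6, Tubb2a and Tubg1. Tuba1b had 361, 310 and 327 reads in replicates 1, 2 and 3, and Tubb5 had 324, 285 and 307. Tuba1b was thus above Tubb5 within each library, although the ranges over libraries overlap. Tubb4b had 229, 200 and 196 reads and lay below both and above all others in every library.

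A middle group followed. Tuba1a had 60.4 ± 3.89 reads, Tubb2b 60.1 ± 0.963 and Tuba4a 58.6 ± 2.16 (SD, n = 3), and neighbours in this order overlapped. Tuba1c had 50.7 ± 4.07 and Tubb6 44.0 ± 2.37, each without overlap with its neighbours. Tubb2a with 22.8 ± 0.484 and Tubg1 with 21.3 ± 1.40 overlapped again at the low end. For the 6 mRNAs with stretches these means cover only the listed parts, so they do not give the level of the whole mRNA. The median coverage moved every mean downward, to 178 ± 20.5 in Tuba1b and 20.0 ± 4.0 in Tuba1a (SD, n = 3), and set Tubb5 (173 ± 6.38) close to Tuba1b. By the median the middle group did not hold: Tubb2b had 41.2 ± 2.36 reads and Tubb6 32.3 ± 3.21, above Tuba4a with 20.7 ± 2.89, Tuba1c with 20.5 ± 2.78 and Tuba1a, which lay at the level of Tubb2a with 20.3 ± 1.15 (SD, n = 3).

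In bulk RNA, fewer cells of a type and less RNA per cell cannot be told apart. Feeder and neural marker lists were low: 6 of 8 fibroblast markers were listed, with 0.0501%, 0.0374% and 0.0299% of all coverage in replicates 1, 2 and 3, and Lum and Postn were not listed. Of 6 neural markers 5 were listed, at 0.0246% ± 0.000643, Dcx was not, and all 8 stem cell markers were listed at 0.439% ± 0.00565 (SD, n = 3). The part of other cells in the tubulin coverage was not tested.

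The libraries listed 3653533 to 3846960 cytosines each, with a summed coverage of 139884444 to 151362866 reads over cytosines, and the tubulins took 0.326%, 0.292% and 0.315% of it in replicates 1, 2 and 3. Over all cytosines 1.53%, 1.45% and 1.41% of reads were unconverted. The targeted genes were listed at 16 to 19 cytosines for Tet1, 632 to 719 for Tet2 and 344 to 448 for Tet3. No source names the deleted exons, so these counts do not check the genotype.

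Tubulin mRNAs were nearly fully converted, and their levels of unconverted cytosine differed little. Over all 10 mRNAs the unconverted share was 1.49%, 1.42% and 1.36% in replicates 1, 2 and 3. It was lower than in all other mRNAs in each library, by a difference of -0.0377 ± 0.00781 percentage points (SD, n = 3). The exact two-sided sign-flip test over the 3 libraries gave p = 0.25, the lowest value possible. The share was highest in Tuba1c, at 1.94%, 1.63% and 1.67%, and in Tubb2b, at 1.75%, 1.75% and 1.61%, each above the rest of its library in all 3. Their differences from all other mRNAs were 0.287 ± 0.116 and 0.238 ± 0.0489 percentage points (SD, n = 3). Tubb6 and Tubb4b were also above in all 3, by smaller differences of 0.0786 ± 0.0509 and 0.0257 ± 0.0137 percentage points (SD, n = 3).

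The share was lowest in Tuba1b, at 1.24%, 1.24% and 1.22%, a difference of -0.230 ± 0.0551 percentage points (SD, n = 3), below the rest of the library in all 3. Tuba1a and Tubb5 were also below in all 3, by differences of -0.130 ± 0.0691 and -0.0475 ± 0.0213 percentage points (SD, n = 3). The ranges of Tuba1b and Tuba1c did not overlap, whereas every pair of neighbours in the order of the 10 mRNAs did. Counting error is part of these values: the 95% Wilson interval of Tuba1c in replicate 1 ran from 1.71% to 2.21% and that of Tuba1b from 1.16% to 1.33%. A read counts for each cytosine it spans, so such intervals are too narrow. When each cytosine was given the same weight, the shares were 1.54% in Tuba1c and 1.52% in Tuba1b, and the difference between these mRNAs was no longer seen.

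**Figure D3:**
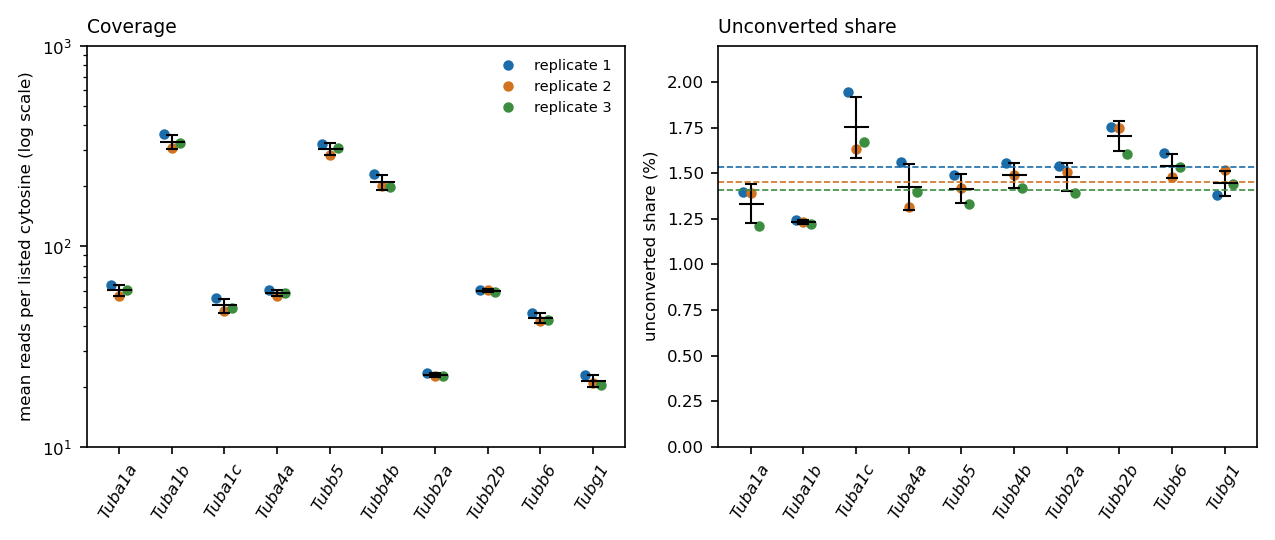
Mean reads per listed cytosine (left, log scale) and unconverted share in percent (right) of each tubulin mRNA; points are the 3 replicates, black bars the mean and SD, and dashed lines the unconverted share of each whole library. Tuba1b, Tubb5 and Tubb4b lie above the other mRNAs in coverage. In share, Tuba1b, Tuba1a and Tubb5 lie below the dashed line of each library, and Tuba1c, Tubb2b, Tubb6 and Tubb4b above it.

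Close to the stretches the share moved in no common direction. Within 50 nt of an end it was 1.85% ± 0.386 in Tuba1a against 1.30% ± 0.110 elsewhere in the mRNA, higher in 3 of 3 libraries. In Tuba1c it was 1.13% ± 0.144 against 1.86% ± 0.182, lower in 3 of 3. In Tubg1 the difference was the largest, with 2.57% ± 0.961 against 1.40% ± 0.0805, higher in 3 of 3 (SD, n = 3). It rested on few reads: coverage near the end was 8.81 ± 0.755 reads per cytosine, and in replicate 3 the difference was only 0.0451 percentage points. Over the 6 mRNAs together the share near an end was 1.60% ± 0.440 against 1.36% ± 0.0206, higher in 2 of 3 libraries.

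Single cytosines were then set against the background of their library. A cytosine was testable with at least 10 reads in each library, which held for 2519 tubulin cytosines, from 99 in Tuba1a to 622 in Tubb5. In each library an exact binomial test, one-sided, set its unconverted reads against the share of that whole library. Fisher's combination of the 3 p-values was then adjusted for the 1639820 testable cytosines of all mRNAs (Benjamini-Hochberg). A candidate site needed an adjusted p below 0.05, a mean share of 10% or more, and more than the background share in every library; 0.0473% of all testable cytosines met this.

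No tubulin cytosine was a candidate. The count of 0 of 2519 has an exact 95% upper limit of 0.146%, which lies above the 0.0473% of all mRNAs, so fewer sites than elsewhere are not shown. By unadjusted p below 0.05 there were 152 (6.03%, against 3.32% of all testable cytosines). The tubulin cytosines were covered more deeply, with a median of 62.7 reads against 30.3, and these 152 were not split by depth. The count of 0 candidates rested on all 3 libraries. Without replicate 1 the same exact test gave 2 candidates, position 175 of Tubb2b and position 447 of Tubg1, and without replicate 2 it gave the former only. The median coverage of testable tubulin cytosines was 62.7 reads per library. In 1 library of that depth, no unconverted read leaves a share up to 4.79% (3 reads) possible. At each mRNA's median depth this limit for 1 library was 1.32% in Tuba1b, 1.31% in Tubb5, 10.2% in Tuba4a, 11.0% in Tubb2a and 12.1% in Tubg1. In the last 3, 1 library alone thus leaves a share of 10% possible. With no unconverted read in any of the 3 libraries the limits would be lower, and these were not computed. A site near the minimum can also be missed in any mRNA, at any depth, when its observed mean falls below 10%. These limits and intervals cover counting error only, since PCR copies carry no molecular identifiers.

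Low shares above the background were found at 29 tubulin cytosines with an adjusted p below 0.05, or 1.15% of those tested, against 0.499% of all testable cytosines. Depth moved with this difference: at a mean coverage of 100 reads or more the test passed 2.58% of tubulin cytosines and 2.41% of all, and below it 0.199% and 0.176%. The share of tubulin cytosines was thus near that of mRNAs of like depth. Tubb5 held 12 of the 29, Tubb4b 5, Tuba1b, Tuba1c and Tubb2b 3 each, Tuba1a, Tuba4a and Tubb6 1 each, and Tubb2a and Tubg1 none, with 2 and 3 cytosines at an unadjusted p below 0.05 in the same exact test. Their mean shares ran from 2.44% to 9.76% with a median of 3.72%, and 28 of the 29 were above the background in all 3 libraries.

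The highest of these was position 175 of Tubb2b, unconverted in 5 of 70, 4 of 53 and 7 of 48 reads, or 9.76% ± 4.18 (SD, n = 3; adjusted p = 3.01e-05, exact binomial test combined over libraries). It lay just under the level minimum, and replicate 3 stood above the other libraries. Position 1935 of Tuba1c followed, with 8 of 73, 2 of 62 and 6 of 79 reads, or 7.26% ± 3.88. Position 154 of Tubb5 had the least spread of the high ones, with 6 of 92, 5 of 89 and 6 of 100 reads, or 6.05% ± 0.454 (SD, n = 3; adjusted p = 0.00451, exact binomial test).

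A pair of these cytosines lay at the same place of the beta-tubulin frame. Position 466 of Tubb4b was unconverted in 38 of 581, 25 of 479 and 26 of 474 reads, or 5.75% ± 0.699 (adjusted p = 8.48e-22, exact binomial test, n = 3). Position 475 of Tubb2b, 9 nt further along in the frame of the pair, was unconverted in 16 of 232, 12 of 214 and 12 of 222 reads, or 5.97% ± 0.809 (adjusted p = 4.44e-09, exact binomial test, n = 3). The ranges of both mRNAs overlapped, and Tubb5, Tubb2a and Tubb6 listed no cytosine at the corresponding position. Of the 29 cytosines, 22 had a testable cytosine at the same place in a paralogue, and only this pair passed in both mRNAs. Places are those of a frame without insertions or deletions, so a partner need not be the equivalent cytosine. Whether reads were shared between Tubb4b and Tubb2b at this pair was not tested.

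The most deeply covered low sites of the alpha and beta genes also had listed partners. Position 1028 of Tuba1b had 3.02% ± 0.0964 from 3607 reads, the least spread of the 29, and its partner in Tuba4a had 2.69% ± 0.183 (SD, n = 3; adjusted p = 0.195, exact binomial test). Position 1329 of Tubb5 had 3.18% ± 0.678 from 4545 reads, and its partners in Tubb4b and Tubb6 had 2.56% ± 4.44 and 2.34% ± 2.19, values that do not differ from it beyond their spread.

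**Figure D4:**
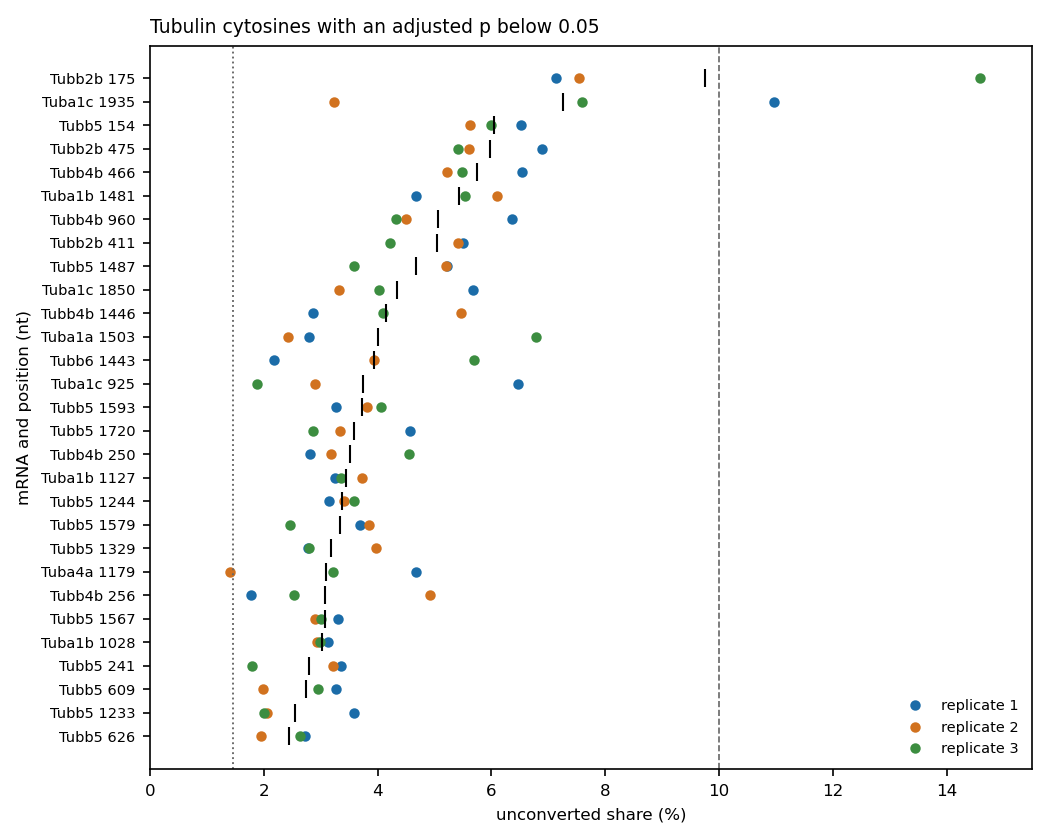
Unconverted share in percent at the 29 tubulin cytosines with an adjusted p below 0.05, named by mRNA and position in nt; points are the 3 replicates, black ticks the mean, the dotted line the mean share of whole libraries and the dashed line the 10% minimum of a candidate. All 29 means lie between 2.44% and 9.76%, left of the dashed line.

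The testable cytosine with the highest share of the other mRNAs rested on few reads. In Tuba1a, position 717 had 2 of 23, 3 of 12 and 1 of 25 reads unconverted, or 12.6% ± 11.0, the only testable tubulin cytosine at 10% or above (SD, n = 3; adjusted p = 0.111, exact binomial test). Position 527 of Tuba4a reached 9.83% ± 5.23, position 185 of Tubg1 8.77% ± 3.55 and position 399 of Tubb2a 8.27% ± 4.69. Position 1172 of Tubb6 reached 7.54% ± 7.18, position 402 of Tubb4b 7.44% ± 4.51 and position 2322 of Tubb5 6.85% ± 0.515 (SD, n = 3). None of these 7 passed the adjusted test. In Tuba1b the highest was position 1481, with 11 of 235, 12 of 197 and 14 of 253 reads or 5.44% ± 0.710, and it did pass (adjusted p = 3.20e-07, exact binomial test, n = 3).

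Of 34 other genes of tubulin and microtubule biology, chosen with earlier results of these data known, 29 were listed and 21 had testable cytosines. They held 2 candidates among 3932 testable cytosines (0.0509%, exact 95% interval 0.00616% to 0.184%), near the 0.0473% of all mRNAs, and 13 (0.331%) had an adjusted p below 0.05. Ttl, the ligase that adds tyrosine back to alpha-tubulin, was unconverted at position 2569 in 20 of 63, 19 of 68 and 15 of 40 reads, or 32.4% ± 4.81 (adjusted p = 3.31e-49, exact binomial test, n = 3). Tubb3, a beta-tubulin best known from neurons, was unconverted at position 1242 in 4 of 21, 2 of 12 and 3 of 16 reads, or 18.2% ± 1.30 (adjusted p = 0.000458, exact binomial test, n = 3). None of Tubb5, Tubb4b and Tubb6 listed a cytosine at the corresponding position of the shared frame. In Tubb2a and Tubb2b that position lay inside an unlisted stretch, so these 2 mRNAs could not list it. The most deeply covered of the list were Stmn1, a protein that sequesters tubulin dimers, with 202 ± 10.5 reads, and the tubulin folding cofactors Tbca and Tbcb, with 106 ± 9.44 and 57.9 ± 1.72 (SD, n = 3).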

How the data were processed

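Bisulfite-sequenced mRNA of 3 samples of 1 group was analysed. BSMAP and the build mm9 are named per the submitters' processing notes, and no version, treatment of reads with several matches or annotation is stated there. Per the file headers, the deposited tables give the position along a RefSeq transcript, the coverage (a count of reads) and the unconversion ratio, a fraction. The lowest count was 3. Their product gave whole unconverted reads, to a tolerance of 1e-06, for 100% of cytosines. Of 15021 transcripts, 14928 matched a symbol by accession without version in the GRCm38.p6 table, used for names; sequences come from RefSeq of that build. The calls, the offsets between paralogues (searched to 600 nt) and the stretches were computed with Python 3.11.15, numpy 2.4.6, pandas 2.3.3 and scipy 1.17.1 and tested on simulated data. p-values of cytosines treat reads as independent, and spread between samples does not enter them. The exact two-sided sign-flip test of tubulins against other mRNAs gave p = 0.25, the lowest value possible with 3 libraries. The members, the lists and the rule for named genes (all 10 members, the top cytosine of each, and microtubule genes with a candidate or among the 3 most covered) were chosen with earlier results of these data known. The cytosines that each protein requires were not counted, for want of protein sequences here.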

Additional observations from a re-analysis of the deposited data

How the results depend on the processing

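The count of tubulin candidates was 0 against the background of each transcript. It was also 0 at a coverage minimum of 20 reads, a level minimum of 20% and with the highest of the 3 p-values, which are stricter rules and say nothing about stability. Leaving out 1 replicate gave 0 to 2: without replicate 1, position 175 of Tubb2b and position 447 of Tubg1 passed with 11.1% and 10.7%, and without replicate 2 the former passed with 10.9%. Over all mRNAs the 775 candidates became 109 with the highest p-value, 490 at 20 reads and 87 at a level of 20%. The 29 tubulin cytosines with an adjusted p below 0.05 became 1 with the highest p-value and 16 to 20 without 1 replicate. The tubulin share of 1.43% was 1.53% as a mean over cytosines. Requiring a listing in all libraries raised the unlisted share of the span to 62.0% in Tuba1a, 59.4% in Tubb2a, 52.1% in Tubb2b and 4.23% in Tubb6, and without replicate 1 Tubb6 had 4.10%, against 0 in all. No paired analysis was possible because there is 1 group. The setting of cytosines near a stretch against the others and the shift of stretches between paralogues were chosen after seeing the data. The median depth of testable cytosines was lowest in Tuba4a, Tubb2a and Tubg1, at 29.3, 27.3 and 24.8 reads per library.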
